A study of Mus musculus with 12 samples.

Results

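The genotype by LPS interaction was measured in bone marrow-derived dendritic cells (BMDCs), which are 8 of the 12 mouse RNA-seq libraries of the study. The interaction of a gene is its log2 response to lipopolysaccharide (LPS) in cells labelled Pde5 knockout minus its log2 response in wild-type (WT) cells, so a negative value means a smaller or more negative response under the knockout label. The 4 groups, with 2 libraries each, were Pde5 knockout cells given 200 ng/ml LPS for 12 h, unstimulated Pde5 knockout cells, WT cells given the same LPS treatment, and unstimulated WT cells. All 8 libraries carry bone marrow as the tissue, a time label of 9 days and a cell type label that says only immune cells. The culture cytokines, the deleted part of Pde5a, and the age and strain of the mice were not given in the sources used here. Nothing in the labels tells whether replicates are separate mice or cultures, so p-values measure the spread between libraries, which may be technical.

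LPS is a cell wall component of Gram-negative bacteria that dendritic cells sense through Toll-like receptor 4 (TLR4). Its adaptor MyD88 leads to NF-kB and inflammatory cytokines, and its adaptor TRIF leads to interferon beta, whose receptor switches on interferon-stimulated genes. Dendritic cells that respond in this way mature, with more co-stimulatory molecules and antigen presentation. Phosphodiesterase 5, the product of Pde5a, degrades cyclic GMP, the messenger made in response to nitric oxide and natriuretic peptides.

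Pde5a, the targeted gene on chromosome 3 (122729158 to 122859374, GRCm38.p6), was counted at a low level in every library. It had 1.27 and 2.56 CPM (counts scaled to the library total) in the LPS-treated and 2.54 and 3.10 CPM in the unstimulated libraries labelled Pde5 knockout, against 2.91 and 1.15 CPM in the LPS-treated and 3.26 and 2.29 CPM in the unstimulated WT libraries. The groups overlapped, and the gene's count over its whole length does not tell the genotypes apart, so the genotype is given below as labelled (KO-labelled). Total counts were 16.1 to 19.7 M per library, and 13072 genes had enough counts for a test. Replicates correlated at r = 0.984 to 0.987 across genes on the log2 CPM scale. Unstimulated KO-labelled libraries correlated with LPS-treated WT libraries at r = 0.975 to 0.986 and with unstimulated WT libraries at 0.939 to 0.971. Summed CPM of conventional dendritic cell markers was 14700 to 15200 in LPS-treated KO-labelled, 14800 to 17700 in unstimulated KO-labelled, 16000 to 18500 in LPS-treated WT and 19200 to 20300 in unstimulated WT libraries. Summed CPM of monocyte and macrophage markers in the same order of groups was 2970 to 5620, 7510 to 8520, 5840 to 9280 and 9320 to 13000, and the part of this in the results was not tested. In bulk RNA, fewer cells of a type and less RNA per cell cannot be told apart.

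The LPS responses of the 2 genotype labels differed in 585 of 13072 genes, 4.48% of those tested (edgeR quasi-likelihood test, Benjamini-Hochberg adjusted p under 0.05). The response was lower under the KO label in 511 genes (3.91%) and higher in 74 (0.566%). The smallest adjusted p was 0.00291, for Il1b, and the median interaction over all genes was -0.01 on the log2 scale. In WT cells LPS changed 4910 genes (37.6%), of which 2609 rose. In KO-labelled cells 0 genes (0%) passed for LPS, with 2800 at an unadjusted p under 0.05 and a smallest adjusted p of 0.0502 for the lectin Clec4d. DESeq2 called 793 genes for the same contrast. Without stimulation 2357 genes (18%) differed between the labels, 1575 of them higher in KO-labelled cells. With LPS 0 genes (0%) differed, with 1330 at an unadjusted p under 0.05 and 150 called by DESeq2.

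The size of the called set depended on single libraries. Without the first LPS-treated KO-labelled library 45 genes were called, without the first LPS-treated WT library 108, and without the second 241. Without the first unstimulated KO-labelled library 194 genes were called, and without the second unstimulated WT library 218. Without the second unstimulated KO-labelled library the count was 1076. All 585 genes kept the sign of their interaction in each of these fits. In all 585 the LPS responses of KO-labelled and WT libraries did not overlap, so leaving out 1 library could hardly change a sign. The kept signs are therefore no test of direction. For single genes below, the number of the 8 fits with 1 library left out in which the gene was still called is given in the form 8 of 8.

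**Figure D1:**
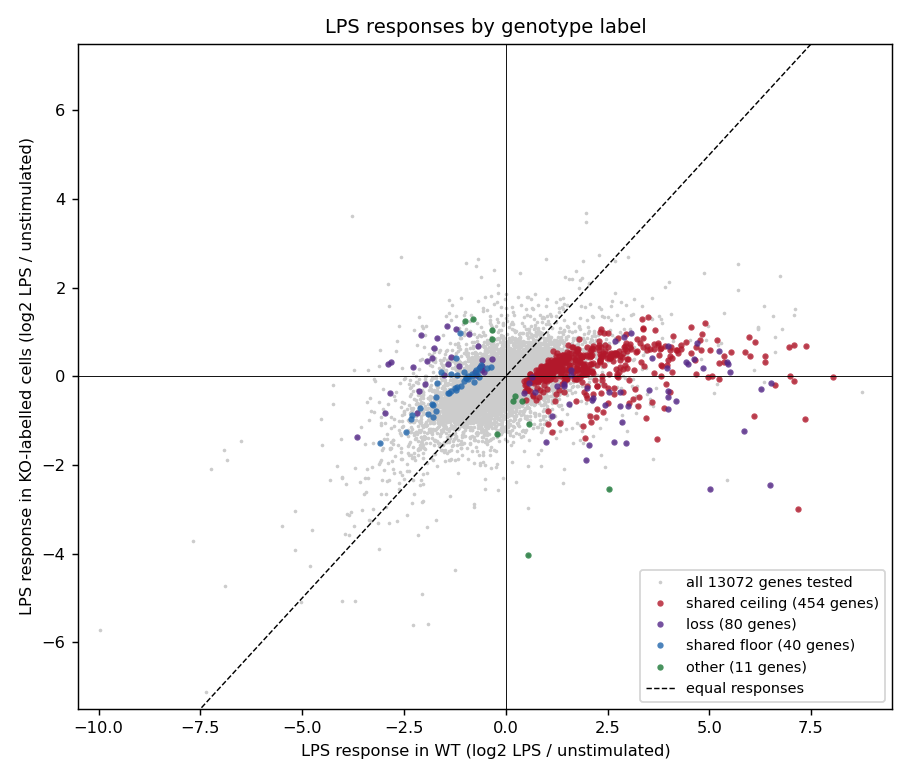
LPS response in KO-labelled cells (vertical axis, log2 of LPS over unstimulated) against LPS response in WT cells (horizontal axis) for 13072 genes in grey and the 585 interaction genes in colour by response shape. The 454 shared-ceiling genes lie right of the vertical line. Of them, 363 lie within 1.5-fold of the horizontal line, 71 above that range and 20 below it. The median response of the 454 was 0.24 in KO-labelled and 1.77 in WT cells.

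The interaction genes were sorted by their levels in the 4 groups. A shared ceiling means that the labels differed without stimulation, lay within 1.5-fold of each other with LPS, and that LPS raised the gene in a genotype. A shared floor is its mirror for genes that fell with LPS, and a loss is a response called in WT and not in KO-labelled cells outside a shared level. Of the 585 genes, 454 (77.6%) met the shared ceiling, 40 the shared floor, 50 were losses of an increase and 30 were losses of a decrease. The remaining 11 held Aldh1b1, a mitochondrial aldehyde dehydrogenase, at a shared level with no called LPS response, and 10 genes of no named shape. Overshoot, gain, damping and reversal held 0 genes, which follows from the 0 genes called for LPS in KO-labelled cells, since each of these shapes needs such a call. For the same reason every interaction gene called for LPS in WT cells outside a shared level is a loss. A loss thus means a missing call. Past 1.5-fold, the fitted KO-labelled response rose in 5 and fell in 15 of the 50 lost increases. It rose in 7 and fell in 3 of the 30 lost decreases. Genes just inside the 1.5-fold limit were Dram1 and Mmp14 at 1.49-fold, and just outside it Nupr1 and Radil at 1.51-fold. With responses past 1.5-fold in place of called ones, a rule chosen after seeing the data, 406 genes met the ceiling, 29 the floor and 35 gain, overshoot, damping or reversal. Of the 35, 25 were reversals, Nos2 among them. Under the same rule 21 genes, Saa3 and Hp among them, met a shared level that the labels reached from opposite sides.

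In the 454 shared-ceiling genes the median interaction was -1.54, the median LPS response 0.24 in KO-labelled and 1.77 in WT cells, and the median difference of KO-labelled from WT cells -0.09 with LPS and 1.51 without. On a log2 scale where unstimulated WT cells are 0 and LPS-treated WT cells are 1, these genes had a median position of 0.953 in LPS-treated and 0.844 in unstimulated KO-labelled cells. Unstimulated KO-labelled cells were above LPS-treated WT cells in 100 of the 454. The fitted KO-labelled response was above 1.5-fold in 71 genes, within 1.5-fold in 363 and below it, as a decrease, in 20. Its 95% interval spanned 0 in 307 genes, lay above 0 in 124 and below 0 in 23. These values describe the genes and are no test, since the same libraries chose them.

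**Figure D2:**
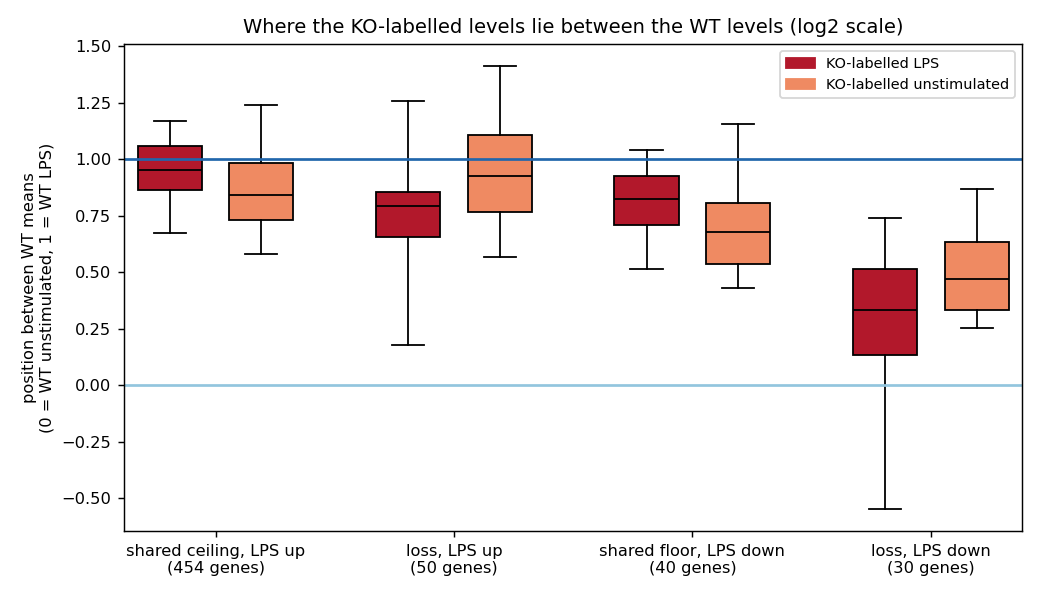
Position of LPS-treated (red) and unstimulated (orange) KO-labelled cells between the WT levels, by response shape; 0 is the mean of unstimulated and 1 the mean of LPS-treated WT libraries on the log2 scale. Lines in boxes are medians over genes, boxes are quartiles and whiskers span the central bulk of genes; shared-ceiling genes have medians of 0.953 with LPS and 0.844 without.

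The inflammatory cytokines that were called, 4 of 18 tested against 4.48% of all tested genes, met the shared ceiling. Il1b, which encodes the fever-inducing cytokine interleukin-1 beta (chromosome 2, 129364569 to 129371164), had 604 and 578 CPM in LPS-treated and 688 and 466 CPM in unstimulated KO-labelled libraries, against 595 and 669 CPM in LPS-treated and 44.5 and 41.7 CPM in unstimulated WT libraries. The 6 libraries other than unstimulated WT overlapped, and unstimulated WT stood apart below them. Its interaction was -3.97 ± 0.266 (log2, SE; adjusted p = 0.00291 by edgeR), called in 8 of 8 fits. Il6, a cytokine of acute inflammation, had 33.8 and 34.7 CPM with LPS and 47.1 and 28.9 CPM without in KO-labelled cells, against 35.6 and 36.5 CPM with LPS and 9.06 and 7.01 CPM without in WT cells. Here too only unstimulated WT was low, and the interaction was -2.44 ± 0.338 (adjusted p = 0.0122 by edgeR, 7 of 8). All 4 of the inflammatory cytokines and antagonists called had a lower response under the KO label, and the median interaction over the 18 was -1.18. The count was 1 without the first LPS-treated KO-labelled library, 2 without the first LPS-treated WT or the first unstimulated KO-labelled library, and 7 with DESeq2. The others called were Il1rn, the interleukin-1 receptor antagonist, at -3.10 and Osm, oncostatin M, at -1.85. Il12b, the shared subunit of interleukins 12 and 23, had 1230 and 995 CPM with LPS and 866 and 788 CPM without in KO-labelled cells, against 773 and 966 CPM with LPS and 809 and 511 CPM without in WT cells. Its LPS-treated KO-labelled libraries lay above all others, and the other groups overlapped. The interaction of Il12b was -0.09 ± 0.324 (adjusted p = 0.906 by edgeR).

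Among 17 NF-kB subunits and feedback genes, 4 had a lower response under the KO label and 0 a higher one, against lower responses in 3.91% of all tested genes. The count was 0 without the first LPS-treated KO-labelled library, 1 without the second LPS-treated KO-labelled, the first unstimulated KO-labelled, either LPS-treated WT or the second unstimulated WT library, and 7 and 10 without the first unstimulated WT and the second unstimulated KO-labelled library. DESeq2 called 9. Bcl3, a nuclear NF-kB cofactor, had 180 and 193 CPM with LPS and 192 and 147 CPM without in KO-labelled cells, against 204 and 218 CPM with LPS and 77.1 and 68.2 CPM without in WT cells. Unstimulated WT was again the low group, and the interaction was -1.53 ± 0.208 (adjusted p = 0.00978 by edgeR, 7 of 8). The NF-kB subunit Rel had an interaction of -0.84 (2 of 8). Among 25 tested Toll-like receptors and adaptors, 1 was lower, the adaptor Myd88 at -0.62 (1 of 8), and 1 was higher, the endosomal receptor Tlr12 at 1.19 (3 of 8). Tlr4, the LPS receptor, had 12.1 and 16.5 CPM with LPS and 15.6 and 18.8 CPM without in KO-labelled cells, against 21.6 and 14.7 CPM with LPS and 25 and 30.1 CPM without in WT cells. Its interaction was 0.21 ± 0.315 (adjusted p = 0.747 by edgeR). The LPS co-receptor Cd14 had an interaction of -1.73 that missed the threshold (adjusted p = 0.0662 by edgeR). Over all tested genes 3.91% were lower and 0.566% higher, and the 1 lower call among the 25 receptors and adaptors is near that share.

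Interferon-stimulated genes were mostly called with a lower response under the KO label. Of 36 listed genes of the type I interferon response, all 36 rose with LPS in WT cells. A lower response under the KO label was called in 32, against 3.91% of all tested genes. Of all genes raised over 2-fold in WT cells 44.5% were called in the interaction. The median interaction of the list was -2.78. Of the 32, 24 met the shared ceiling and 8 were losses of an increase. The median response of the list was 0.48 in KO-labelled and 3.30 in WT cells, and the median difference of KO-labelled from WT cells was -0.34 with LPS and 2.37 without. The summed CPM of the list was 6890 and 7600 in LPS-treated and 6540 and 4420 in unstimulated KO-labelled libraries, against 10400 and 7360 in LPS-treated and 1570 and 1670 in unstimulated WT libraries. The 4 listed genes that were not called were Mx1, Oas2, Usp18 and Trim25. The count of 32 was 4 without the first LPS-treated KO-labelled library, 13 without the first LPS-treated WT library, and 17 and 19 without the first unstimulated KO-labelled and the second unstimulated WT library. Without filtering on low counts it was 21.

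Isg15, a ubiquitin-like modifier (chromosome 4, 156199424 to 156200818), had 268 and 269 CPM with LPS and 274 and 161 CPM without in KO-labelled cells, against 413 and 328 CPM with LPS and 13.4 and 20.7 CPM without in WT cells. Unstimulated KO-labelled libraries lay far above unstimulated WT, and LPS-treated KO-labelled libraries below both LPS-treated WT libraries. The interaction was -4.28 ± 0.417 (adjusted p = 0.00668 by edgeR, 8 of 8). Irf7, the transcription factor that amplifies interferon production, had 432 and 444 CPM with LPS and 384 and 253 CPM without in KO-labelled cells, against 595 and 497 CPM with LPS and 21.2 and 32.2 CPM without in WT cells. Its interaction was -4.03 ± 0.351 (adjusted p = 0.00652 by edgeR, 8 of 8). Both met the shared ceiling. The losses were Ifit1, Ifit2, Ifit3, Ifit3b, Oas1a, Oas1g, Rsad2 and Cmpk2, antiviral effectors apart from the nucleotide kinase Cmpk2. Oas1g, of the oligoadenylate synthetase family that activates RNase L, had 15.4 and 20.4 CPM with LPS and 22.7 and 12.7 CPM without in KO-labelled cells, against 45.1 and 27.1 CPM with LPS and 0.77 and 1.05 CPM without in WT cells. KO-labelled libraries with and without LPS overlapped and lay below LPS-treated WT, and the interaction was -5.41 ± 0.585 (adjusted p = 0.00844 by edgeR, 8 of 8). The Ifit and Oas genes are families of close paralogs that could share reads. Ifnb1, interferon beta itself, had 0 or 1 count in every library and was not tested.

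Promoters of the interaction genes were searched on both strands for the core of the interferon-stimulated response element, GAAANNGAA, in the window from 250 bases before to 50 after the RefSeq start. A match was in 21.1% of shared-ceiling genes with a promoter sequence, 31.6% of losses of an increase, 13.8% of shared-floor genes and 0% of losses of a decrease, and in 8.80% of all tested genes. Among genes that LPS raised over 2-fold in WT cells and that were not called in the interaction it was in 12.1%. A kappaB match was in 11.7% of shared-ceiling genes, 9.76% of these raised but uncalled genes and 6.29% of all tested genes. AP-1 (TGANTCA) matches were in 9.71%, 13.7% and 6.38%, and cyclic AMP response element (TGACGTCA) matches in 2.00%, 2.64% and 3.49%, of the same groups in that order. Matches describe letters and not bound sites. The promoters of 3 interferon-stimulated interaction genes are shown for their matches, 5′ to 3′ on the gene's strand, with the response element cores and kappaB matches in capitals. They are from RefSeq on GRCm38.p6, all on the minus strand, Isg15 at chr4:156200769-156201068, Oas1g at chr5:120887564-120887863 and Cxcl10 at chr5:92348840-92349139.
Isg15: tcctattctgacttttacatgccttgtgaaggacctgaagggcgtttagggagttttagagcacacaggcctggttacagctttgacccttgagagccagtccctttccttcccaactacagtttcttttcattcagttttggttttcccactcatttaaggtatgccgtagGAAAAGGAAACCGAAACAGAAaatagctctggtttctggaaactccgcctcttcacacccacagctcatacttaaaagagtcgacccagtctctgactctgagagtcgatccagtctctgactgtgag
Oas1g: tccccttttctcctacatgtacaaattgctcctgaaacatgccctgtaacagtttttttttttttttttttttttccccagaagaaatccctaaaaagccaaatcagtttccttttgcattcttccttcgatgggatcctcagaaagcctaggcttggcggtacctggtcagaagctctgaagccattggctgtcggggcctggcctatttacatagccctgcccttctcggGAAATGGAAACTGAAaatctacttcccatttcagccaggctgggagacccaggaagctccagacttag
Cxcl10: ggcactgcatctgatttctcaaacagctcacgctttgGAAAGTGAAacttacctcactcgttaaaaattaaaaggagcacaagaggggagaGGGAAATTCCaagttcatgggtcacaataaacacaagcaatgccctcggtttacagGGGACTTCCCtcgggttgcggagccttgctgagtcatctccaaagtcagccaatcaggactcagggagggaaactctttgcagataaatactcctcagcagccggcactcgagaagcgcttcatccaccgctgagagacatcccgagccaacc
Isg15 held 3 overlapping cores, Oas1g held 2 overlapping cores, and Cxcl10 held 1 core and 2 kappaB matches.

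Genes of the interferon-gamma response were also called in 1 direction. Of the genes listed, 23 rose with LPS in WT cells. Among all genes raised over 2-fold in WT cells 44.5% were called in the interaction, and among all tested genes 4.48%. Whether the list differed from other raised genes was not tested. Of 24 interferon-gamma response genes, among them the guanylate-binding proteins and immunity-related GTPases that attack pathogen vacuoles, 14 had a lower response under the KO label and 0 a higher one, and all 14 met the shared ceiling. The median interaction was -2.21, and the count was 3 without the first LPS-treated KO-labelled, 6 without the first LPS-treated WT, and 9 without the second LPS-treated WT, the first unstimulated KO-labelled or the second unstimulated WT library. Tgtp1, an immunity-related GTPase, had 45.0 and 51.8 CPM with LPS and 26.6 and 17.7 CPM without in KO-labelled cells, against 40 and 39.2 CPM with LPS and 1.42 and 1.61 CPM without in WT cells. Its KO-labelled libraries with LPS lay above all others, and the fitted response was 1.20 in KO-labelled and 4.90 in WT cells. The interaction was -3.70 ± 0.320 (adjusted p = 0.00586 by edgeR, 8 of 8), and Tgtp1 and Tgtp2 are near-identical copies whose counts are uncertain. Gbp6, a guanylate-binding protein, had an interaction of -5.55 (8 of 8). Of 19 chemokine ligands 4 were lower and 0 higher, against 3.91% and 0.566% of all tested genes. That count was 0 without the first LPS-treated KO-labelled, the first LPS-treated WT or the first unstimulated KO-labelled library, and 1 without the second LPS-treated KO-labelled, the second LPS-treated WT or the second unstimulated WT library. Cxcl10, which attracts activated T cells and whose promoter is shown above, had 53.8 and 71.9 CPM with LPS and 47.0 and 30.7 CPM without in KO-labelled cells, against 103 and 67.6 CPM with LPS and 2.55 and 6.64 CPM without in WT cells. Its interaction was -3.66 ± 0.593 (adjusted p = 0.0241 by edgeR, 5 of 8). Ccl5, a T cell attractant of mature dendritic cells, had an interaction of -1.03 (2 of 8).

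**Figure D3:**
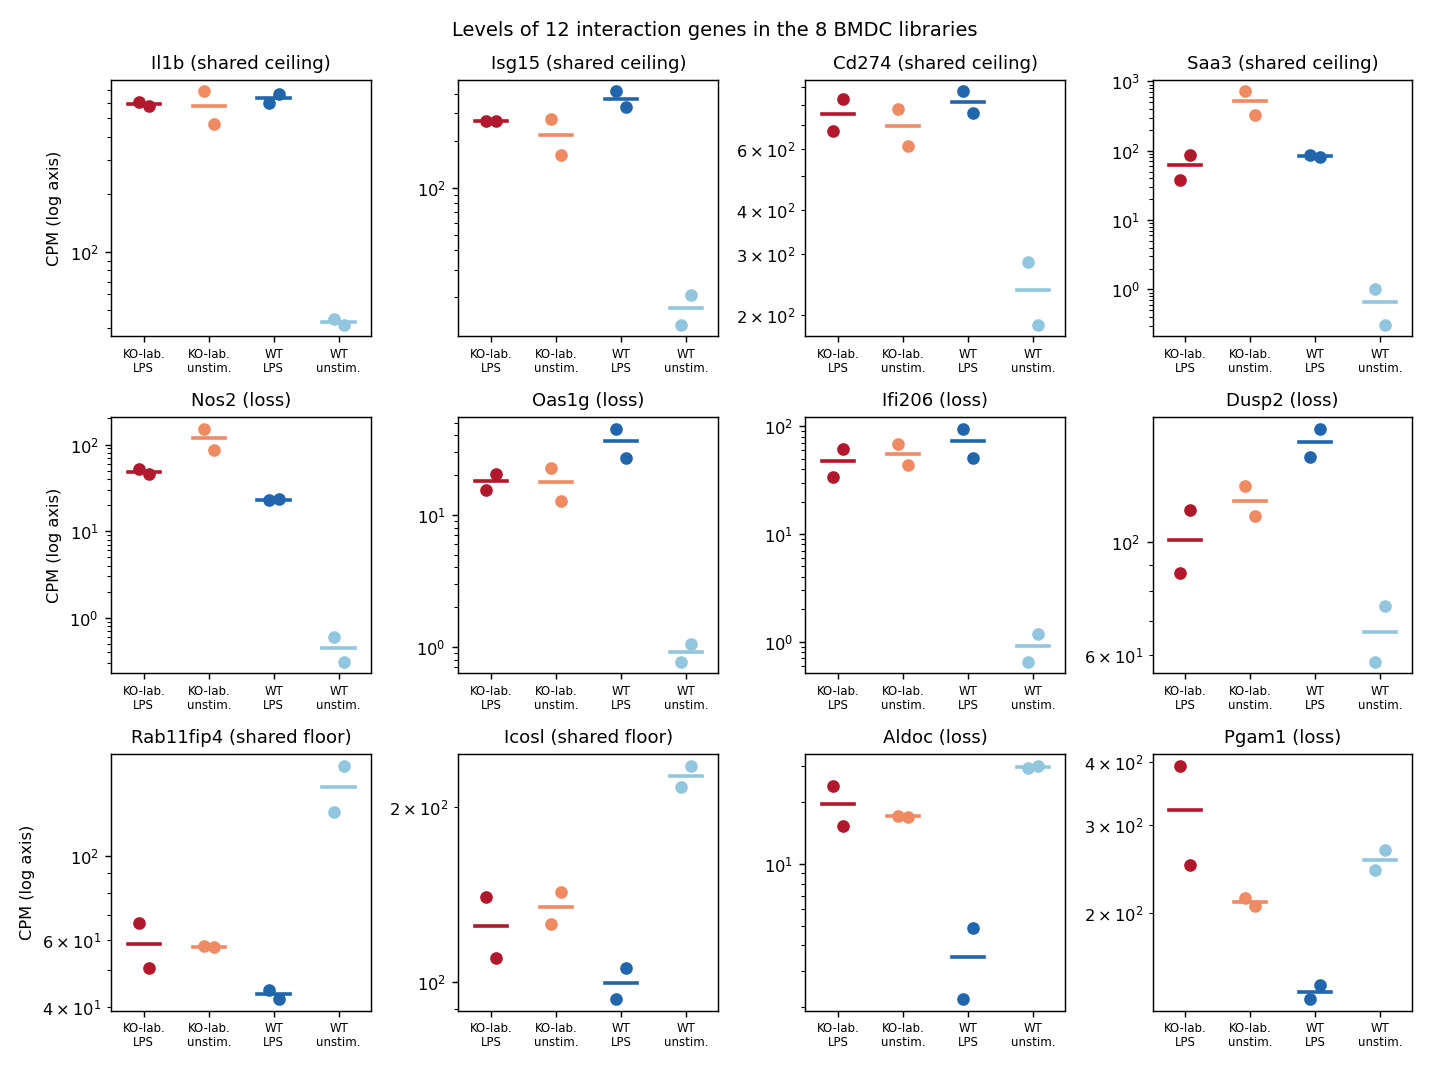
Levels in CPM (log axis, a scale per panel) of 12 interaction genes in the 8 libraries; points are libraries and bars are arithmetic means of the 2 libraries. Il1b, Isg15 and Cd274 are low in unstimulated WT libraries alone, Saa3 and Nos2 are highest in unstimulated KO-labelled libraries, and Aldoc and Pgam1 are lowest in LPS-treated WT libraries.

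By their summed level, acute-phase and innate recognition genes were highest without LPS in KO-labelled cells. Of 15 tested complement, acute-phase and innate receptor genes, 9 had a lower response under the KO label and 0 a higher one. Over all tested genes the shares were 3.91% and 0.566%. The 15 genes had a median interaction of -3.33. Their median response was -0.88 in KO-labelled and 2.74 in WT cells. The count was 5 without the first LPS-treated KO-labelled library and 6 without the second LPS-treated WT library. Saa3, an inducible serum amyloid A protein (chromosome 7, 46711998 to 46719615), had 38.3 and 86.4 CPM with LPS and 717 and 328 CPM without in KO-labelled cells, against 87.7 and 81.2 CPM with LPS and 1.01 and 0.31 CPM without in WT cells. The unstimulated KO-labelled libraries were above all others, and the LPS-treated libraries of both labels overlapped. Its interaction of -10.20 ± 0.933 (adjusted p = 0.00668 by edgeR, 8 of 8) was the most negative among the named genes. Fpr1, a receptor for bacterial formyl peptides, had 1.15 and 0.715 CPM with LPS and 6.58 and 4.98 CPM without in KO-labelled cells, against 3.87 and 1.67 CPM with LPS and 0.118 and 0.062 CPM without in WT cells. Its interaction was -7.57 (8 of 8), a fitted value that rests on very few counts in unstimulated WT libraries. Fpr2, its paralog, had an interaction of -7.01 (8 of 8), with 0 CPM and 0.31 CPM in unstimulated WT libraries. The summed CPM of the list was 402 and 565 with LPS and 1460 and 952 without in KO-labelled cells, against 647 and 603 with LPS and 337 and 382 without in WT cells.

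Among nitric oxide genes, Nos2 was a loss of an increase with higher levels in KO-labelled cells in both states. With LPS that difference was not called, since 0 genes were called between the labels there. Nos2, the inducible nitric oxide synthase (chromosome 11, 78920787 to 78960226), had 52.2 and 45.4 CPM with LPS and 153 and 86.1 CPM without in KO-labelled cells, against 23.0 and 23.3 CPM with LPS and 0.592 and 0.31 CPM without in WT cells. All KO-labelled libraries lay above all WT libraries, with the unstimulated ones highest. The fitted response was -1.22 in KO-labelled and 5.85 in WT cells, and the interaction -7.07 ± 0.530 (adjusted p = 0.00586 by edgeR, 8 of 8). Of 28 nitric oxide, cyclic GMP and AMP kinase signalling genes tested, 5 were lower and 0 higher, against 3.91% and 0.566% of all genes. The count was 1 without the first LPS-treated KO-labelled, either LPS-treated WT, the first unstimulated KO-labelled or the second unstimulated WT library, and 2 without the second LPS-treated KO-labelled library. Ass1, which recycles citrulline to arginine, had an interaction of -0.97 and Gch1, which makes the synthase cofactor tetrahydrobiopterin, of -1.13 (2 of 8 each). Stk11, the kinase upstream of AMP kinase, had -0.74 (1 of 8). Arg1, the arginase that competes for arginine, had 0.23 and 0.715 CPM with LPS and 9.87 and 6.60 CPM without in KO-labelled cells, against 0.448 and 1.10 CPM with LPS and 0.415 and 0.806 CPM without in WT cells. It was high only in unstimulated KO-labelled libraries, with an interaction of -4.58 ± 0.871 (adjusted p = 0.0266 by edgeR, 2 of 8). Pde5a had an interaction of -0.23 ± 0.698 (adjusted p = 0.886 by edgeR), and the cyclic GMP-dependent kinase Prkg1 had 0.53 ± 0.328 (adjusted p = 0.395 by edgeR). Npr1, the natriuretic peptide receptor that makes cyclic GMP, had 160 and 124 CPM with LPS and 77.5 and 60.8 CPM without in KO-labelled cells, against 63.8 and 69.0 CPM with LPS and 34.0 and 18.4 CPM without in WT cells. Its responses of 1.11 in KO-labelled and 1.54 in WT cells gave an interaction of -0.43 ± 0.403 (adjusted p = 0.591 by edgeR).

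**Figure D4:**
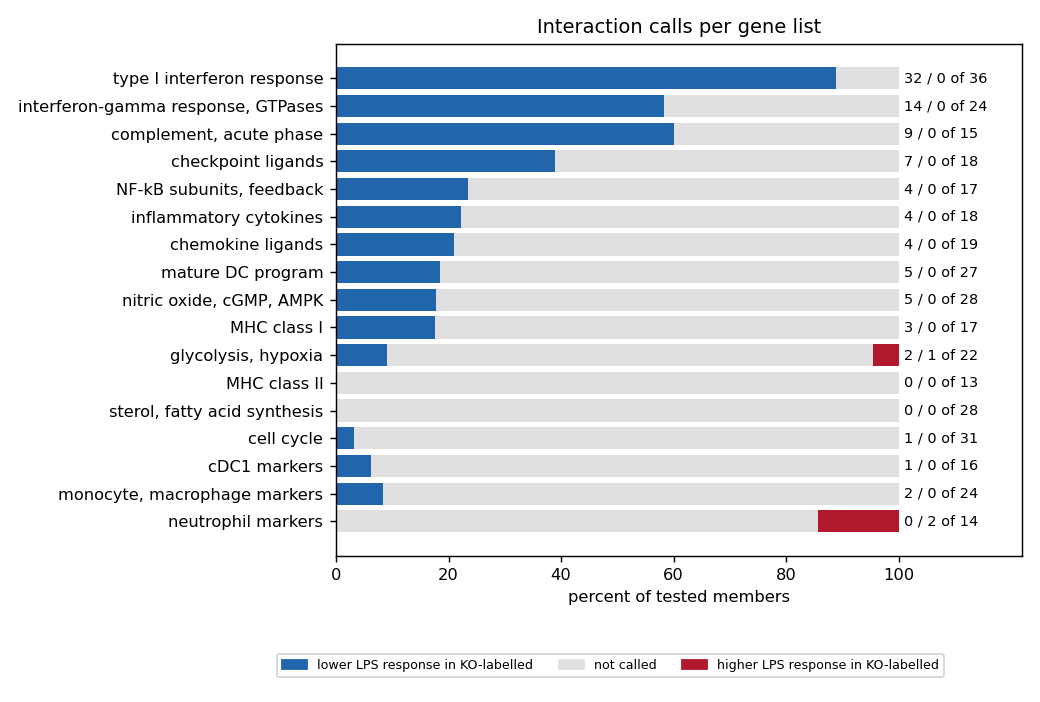
Percent of the tested members of 17 gene lists called with a lower (blue) or higher (red) LPS response in KO-labelled cells; the numbers at the right give lower / higher of tested. The type I interferon list has 32 lower of 36, and sterol synthesis and MHC class II have 0 in either direction.

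Maturation, checkpoint and antigen presentation genes were called in part, mostly at the shared ceiling. Their counts are to be read against lower responses in 3.91% and higher ones in 0.566% of all tested genes. Of 27 genes of the mature dendritic cell program 5 were lower and 0 higher, all 5 at the ceiling. That count was 0 without either LPS-treated WT library, without the first LPS-treated KO-labelled or without the first unstimulated KO-labelled library, 1 without the second LPS-treated KO-labelled or the second unstimulated WT library, and 10 and 11 without the first unstimulated WT and the second unstimulated KO-labelled library. DESeq2 called 12. Ccr7, the receptor that guides mature dendritic cells to lymph nodes, had 5720 and 6540 CPM with LPS and 5680 and 4950 CPM without in KO-labelled cells, against 6920 and 7040 CPM with LPS and 3750 and 3030 CPM without in WT cells. Its interaction of -0.96 missed the threshold (adjusted p = 0.0593 by edgeR). Of 18 checkpoint ligands and related genes 7 were lower and 0 higher, 5 at the ceiling, 1 as a loss and 1, Arg1, of no named shape. The count was 0 without the first LPS-treated KO-labelled or the first LPS-treated WT library, 1 without the first unstimulated KO-labelled, 2 without the second LPS-treated WT, 3 without the second unstimulated WT and 4 without the second LPS-treated KO-labelled library. Cd274, which encodes PD-L1, had 675 and 832 CPM with LPS and 781 and 610 CPM without in KO-labelled cells, against 875 and 759 CPM with LPS and 284 and 188 CPM without in WT cells. Unstimulated WT alone was low, and the interaction was -1.80 ± 0.327 (adjusted p = 0.0259 by edgeR, 4 of 8). Tnfrsf14, the ligand of the inhibitory receptor BTLA, had -1.54 (6 of 8). Of 11 co-stimulatory genes 2 were lower and 1, Icosl, was higher. Cd40, the receptor for T cell CD40 ligand, was lower at -0.91 (1 of 8) and met the ceiling, and Tnfsf4, which encodes OX40 ligand, was lower at -2.09 (8 of 8) as a loss. Tnfsf4 had 136 and 105 CPM with LPS and 73.5 and 54.1 CPM without in KO-labelled cells, against 76.1 and 63.3 CPM with LPS and 9.83 and 9.18 CPM without in WT cells. Its KO-labelled libraries with LPS were the highest of all and above those without, so the loss is a missing call and not a missing rise. Its fold response under the KO label was the smaller one. Cxcr5, a chemokine receptor of follicle-homing cells, was also highest in LPS-treated KO-labelled and lowest in unstimulated WT libraries. It had 55.6 and 40.7 CPM with LPS and 32.1 and 25.9 CPM without in KO-labelled cells, against 22.5 and 22.4 CPM with LPS and 3.97 and 4.09 CPM without in WT cells. It was the 1 gene of 585 whose interaction changed sign when CPM differences replaced log2 ratios. Of 17 MHC class I pathway genes 3 were lower, H2-K1 at -1.01 (2 of 8), Tapbp at -0.85 and Tapbpl at -0.73 (2 of 8). That count was 3 without the first and 0 without the second unstimulated WT library, 0 without the first and 9 without the second unstimulated KO-labelled library, and 0 without any 1 of the LPS-treated libraries. It was 1 with library size alone and 10 with DESeq2. Of 13 MHC class II genes 0 were called, with a median interaction of 0.39.

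Of the 74 genes with a higher response under the KO label, 40 met the shared floor and 30 were lost decreases, and the remaining 4 were of no named shape. The 40 shared-floor genes had a median interaction of 0.97, with median responses of -0.11 in KO-labelled and -1.21 in WT cells. Rab11fip4, an effector of endosome recycling GTPases (chromosome 11, 79591021 to 79698016), had 66.4 and 50.8 CPM with LPS and 57.8 and 57.5 CPM without in KO-labelled cells, against 44.4 and 42.1 CPM with LPS and 130 and 172 CPM without in WT cells. Unstimulated WT stood above the 6 other libraries, and the interaction was 1.70 ± 0.214 (adjusted p = 0.00883 by edgeR, 8 of 8). Ifngr1, the ligand-binding chain of the interferon-gamma receptor, had 109 and 104 CPM with LPS and 128 and 164 CPM without in KO-labelled cells, against 74.4 and 70.5 CPM with LPS and 207 and 240 CPM without in WT cells. The 4 groups did not overlap, and the interaction was 1.05 ± 0.171 (adjusted p = 0.0167 by edgeR, 5 of 8). Icosl, the ligand of the T cell co-stimulator ICOS, had 140 and 110 CPM with LPS and 126 and 143 CPM without in KO-labelled cells, against 93.6 and 106 CPM with LPS and 217 and 236 CPM without in WT cells. Its interaction was 0.95 ± 0.179 (adjusted p = 0.0259 by edgeR, 3 of 8). The Notch pathway transcription factor Rbpj had 0.94 (4 of 8) and the RNA-binding protein Celf2 had 0.86 (4 of 8).

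In the 30 lost decreases KO-labelled cells were above WT cells with LPS in 30 of 30 genes, with a median difference of 0.73, and the median difference without LPS was -0.68. The positive interaction and the sorting rule favour this order with LPS, so the count is a description and no test. Between the labels with LPS 0 genes were called. Aldoc, the glycolytic enzyme aldolase C (chromosome 11, 78323073 to 78327781), had 24.1 and 15.3 CPM with LPS and 17.2 and 16.9 CPM without in KO-labelled cells, against 2.19 and 4.85 CPM with LPS and 29.4 and 30.2 CPM without in WT cells. LPS-treated WT alone was low, and the interaction was 3.17 ± 0.449 (adjusted p = 0.0129 by edgeR, 6 of 8). Slc2a3, the glucose transporter GLUT3, had 35.0 and 16.5 CPM with LPS and 15.8 and 18.8 CPM without in KO-labelled cells, against 6.56 and 7.67 CPM with LPS and 22.7 and 33.2 CPM without in WT cells. Its interaction was 2.41 ± 0.481 (adjusted p = 0.0369 by edgeR, 2 of 8). Mthfd1l, an enzyme of mitochondrial folate metabolism, had 2.29 (3 of 8), the inositol monophosphatase Impa2 had 2.22 (3 of 8) and the zinc finger gene Zfp395 had 2.51 (4 of 8). The neutrophil granule genes Ltf, lactoferrin, and Ngp had 2.16 (4 of 8) and 1.80 (2 of 8), beside a summed CPM of neutrophil markers of 109 to 111 with LPS and 140 to 167 without in KO-labelled cells, against 93.3 to 101 with LPS and 177 to 284 without in WT cells. The part of neutrophils in these values was not tested.

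Of the 585 genes, 29 were not called apart between the labels without stimulation, 21 with a higher and 8 with a lower response under the KO label. They include Aldoc, Slc2a3, Mthfd1l and Impa2. The 1 glycolysis list member with a higher response was Pgam1. Higher responses were called in 0.566% and lower ones in 3.91% of all tested genes. Pgam1, phosphoglycerate mutase, had 394 and 250 CPM with LPS and 215 and 207 CPM without in KO-labelled cells, against 135 and 144 CPM with LPS and 244 and 268 CPM without in WT cells. LPS-treated WT was the low group and the first LPS-treated KO-labelled library the highest, and the interaction was 1.36 ± 0.256 (adjusted p = 0.0274 by edgeR, 2 of 8). Of 22 listed glycolysis and hypoxia genes, 1 was higher and 2 were lower, the regulator Pfkfb3 at -1.55 (3 of 8) and the hypoxia transcription factor Hif1a at -0.99 (2 of 8), while the median of the list was 0.90. DESeq2 called 10 higher and 2 lower, and without the second LPS-treated KO-labelled library 6 were higher and 2 lower. Without the first LPS-treated KO-labelled, the first unstimulated KO-labelled, either LPS-treated WT or the second unstimulated WT library 0 were called, and without the first unstimulated WT library 1 was lower and 0 higher. Its uncalled members include, chosen after their values were seen, Ldha, lactate dehydrogenase, at 1.18 (adjusted p = 0.0643 by edgeR) and Gpi1, glucose phosphate isomerase, at 1.21 (adjusted p = 0.0623 by edgeR). Ldha had 1140 and 681 CPM with LPS and 610 and 524 CPM without in KO-labelled cells, against 382 and 391 CPM with LPS and 598 and 600 CPM without in WT cells. The summed CPM of the list was 19300 and 13600 with LPS and 12200 and 9510 without in KO-labelled cells, against 8890 and 9360 with LPS and 7820 and 8390 without in WT cells, so the first LPS-treated KO-labelled library was the highest.

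**Figure D5:**
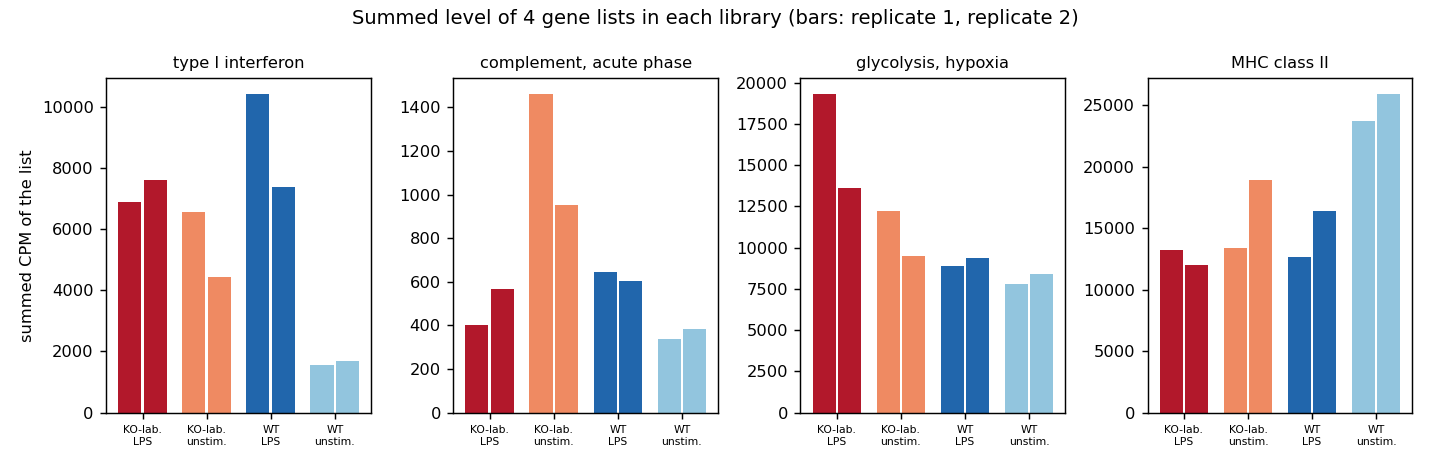
Summed CPM of 4 gene lists in each library, with the 2 bars of a group for replicates 1 and 2. Type I interferon genes are low in unstimulated WT libraries (1570 and 1670), complement and acute-phase genes are highest in unstimulated KO-labelled libraries (1460 and 952), and glycolysis and hypoxia genes in LPS-treated KO-labelled libraries (19300 and 13600).

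A few interaction genes had levels that no named shape covers. Epm2a, the glycogen phosphatase laforin, had 8.05 and 4.59 CPM with LPS and 2.27 and 3.30 CPM without in KO-labelled cells, against 1.74 and 2.71 CPM with LPS and 5.09 and 5.21 CPM without in WT cells. The responses pointed in opposite directions, and neither was called on its own. Its interaction was 2.26 ± 0.495 (adjusted p = 0.0396 by edgeR, 2 of 8). H2-M2, an MHC class I-like gene, had 27.3 and 30.9 CPM with LPS and 70.6 and 81.7 CPM without in KO-labelled cells, against 67.4 and 49.4 CPM with LPS and 83.0 and 71.6 CPM without in WT cells. It was lowest in LPS-treated KO-labelled libraries, with an interaction of -1.11 ± 0.231 (adjusted p = 0.0363 by edgeR, 2 of 8). Bcl2l1, which encodes the survival protein Bcl-xL, had 37.0 and 38.3 CPM with LPS and 49.8 and 58.0 CPM without in KO-labelled cells, against 54.3 and 54.8 CPM with LPS and 51.8 and 56.0 CPM without in WT cells. LPS-treated KO-labelled libraries alone were low, and the interaction was -0.66 ± 0.138 (adjusted p = 0.0359 by edgeR, 0 of 8).

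Outside the interaction genes the KO-labelled levels without LPS also lay toward the WT level with LPS. Over the 2105 genes that LPS raised in WT cells and that were not called in the interaction, the median position of unstimulated KO-labelled cells was 0.681, and over the 2231 it lowered 0.581. With the interaction genes included, the medians were 0.722 over 2609 raised and 0.582 over 2301 lowered genes. Both differences in a position are taken from the same unstimulated WT libraries, and the WT contrast chose the genes. Noise in those libraries alone can move positions above 0, so the medians are a description and no test. Of the 958 genes raised over 2-fold in WT cells 426 (44.5%) were called in the interaction, and of the 963 lowered over 2-fold 46 (4.78%). By library, the median position over 574 interaction genes with an LPS change in WT cells was 0.895 and 0.969 in the LPS-treated and 0.927 and 0.709 in the unstimulated KO-labelled libraries. Lists with 0 interaction calls in either direction included sterol and fatty acid synthesis (28 tested genes, median interaction 0.65), the unfolded protein response (25 genes, 0.19), NRF2 targets (15 genes, 0.17) and nuclear-encoded respiratory chain subunits (26 genes, -0.01). In the simulated data changes were placed only in genes with a mean log2 CPM above 2. There an interaction of 1 was recovered in 52% and of 2 in 96% of changed genes. A missing call thus does not show that responses were alike.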

How the data were processed

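For the 8 BMDC libraries the authors deposited raw counts by gene symbol, whole numbers that were not normalized. Per the submitters' processing notes, the build was mm10 and the tools, in no stated order or role, were featureCounts 2.0.1, HISAT2 2.2.1 and fastp 0.12.4. The strand setting, the annotation release and the handling of multi-mapping reads were not given in the sources used here, so overlapping genes and close paralogs are uncertain. This touches 88 of the called genes, among them Il1b, Wfdc9, Bcl3, Cxcr5, Cd274, Tapbpl, Gpr34, Zbtb46, Ifit1 and Stk11, and also Prkg1, which was not called. The labels' extraction text speaks of another tissue. All columns were mapped to samples by name, and 0 were unmapped.

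In R 4.3.3, edgeR 4.0.16 kept 13072 of 32190 symbols (filterByExpr, minimum count 10) that held 99.92 to 99.95% of counts, scaled libraries by TMM and fitted a mean per group (glmQLFit, robust, and glmQLFTest). The interaction and 4 supporting contrasts were Benjamini-Hochberg adjusted over all genes tested and called at an adjusted p under 0.05. The common biological coefficient of variation was 0.138. CPM were computed from library totals. Replicates differed by more than sampling noise (chi-square per gene 15.4 to 26.2), so none was counted as a duplicate. limma 3.58.1 (voom) and DESeq2 1.42.0 were alternatives, beside other scalings, filters, a replicate block and leaving out each library. Positions and promoters came from RefSeq (GRCm38.p6).

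Named genes were the 8 largest positive and 8 largest negative interactions among calls whose mean log2 CPM reached 2 and whose responses did not overlap, then the 4 smallest p per shape, the 2 smallest p per list and direction, and a set list of nitric oxide, TLR and dendritic cell genes; predicted genes, pseudogenes and symbols with identical counts were left out. Genes and lists were chosen with earlier results of these data known. Lists carry no test. The steps were tested on simulated data, where 13 of 161 calls were false.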

Additional observations from a re-analysis of the deposited data

Results flagged for a closer look

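The LPS effect differed between the genotype labels by the interaction term of the edgeR fit, which is the test behind each value here. It differed in 585 genes, with 511 lower and 74 higher responses in KO-labelled cells. Among the genes named by size the log2 interaction was positive for Aldoc (3.17), Zfp395 (2.51), Slc2a3 (2.41), Mthfd1l (2.29), Gpr34, a lysophosphatidylserine receptor (2.29), Epm2a (2.26), Impa2 (2.22) and Ltf (2.16). It was negative for Saa3 (-10.20), Nos2 (-7.07), Fpr2 (-7.01), the Schlafen gene Slfn4 (-6.98), the olfactory receptor gene Olfr56 (-6.81), the interferon-inducible Ifi206 (-6.66), Slfn1 (-6.38) and the glutathione transferase Gstt1 (-6.29). Fitted values of genes near 0 counts in unstimulated WT libraries, such as Fpr2, Slfn4 and Olfr56, depend on the prior count and are no bound. Slfn and Ifi200 family members have close paralogs that could share reads.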

How the results depend on the processing

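Interaction genes kept their sign in each alternative fit that tested them, and Cxcr5 alone of the 585 changed sign on the CPM scale, where 584 kept it. The kept signs are no test, since the responses of all 585 did not overlap between the labels in the same libraries. Named genes that were not called could change sign, such as Pde5a (-0.84 to 0.60), Il12b (-0.49 to 0.22) and Tlr4 (-0.04 to 0.54). With 1 library left out, the count of interaction genes ranged from 45 to 1076, of lower responses from 44 to 825, of higher responses from 1 to 251, of shared-ceiling genes from 36 to 748, of shared-floor genes from 1 to 214, of losses from 8 to 127, of gain, overshoot, damping or reversal from 0 to 7, of genes called for LPS in KO-labelled cells from 0 to 599, and of genes called between the labels with LPS from 0 to 60. A group with 1 library is then assumed to vary like the others, and these fits have fewer libraries. DESeq2 called 1082 interaction genes (828 lower, 254 higher), 703 shared-ceiling, 158 shared-floor, 142 losses and 44 of gain, overshoot, damping or reversal, with 793 genes called for LPS in KO-labelled cells and 150 between the labels with LPS. Without a filter on low counts 948 interaction genes were called, 193 of them higher, with 130 shared-floor genes, 15 of gain, overshoot, damping or reversal, 587 called for LPS in KO-labelled cells and 56 between the labels with LPS. An average CPM of at least 10 left 50 losses. At an adjusted p under 0.01, 75 interaction genes remained called (74 lower, 1 higher), with 63 shared-ceiling, 1 shared-floor and 11 losses. Genes called for LPS in KO-labelled cells numbered 22 with RLE factors, 21 with upper-quartile scaling, 24 with library size alone and 20 with 1 symbol per identical set, and those of gain, overshoot, damping or reversal 2, 2, 1 and 2 in these fits. Library size alone gave 69 shared-floor genes, 78.9% lower calls and a median interaction over all genes of 0.12. A narrower shared-level margin gave 196 losses and one of 2-fold 31, and responses past 1.5-fold in place of called ones gave 35 of gain, overshoot, damping or reversal. The causes were not tested.

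With the replicate block 516 interaction genes were called, with 50 losses, 8 of gain, overshoot, damping or reversal, 321 genes called for LPS in KO-labelled cells and 2 between the labels with LPS. The log2 difference between replicates 1 and 2 was correlated across genes between groups, at -0.2 to 0.275. It was not above 0.1 in every pair of groups, so same-numbered libraries were taken to share only a number. The 2 libraries per group and the 16.1 to 19.7 M counts limit what can be called.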

Other observations

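Counts of called markers of other cell types, and of the cell cycle genes below, are to be read against 4.48% of all genes. Of 24 tested monocyte and macrophage markers 2 had a lower response under the KO label, Fcgr1, the high-affinity IgG receptor, at -3.17 (4 of 8 fits with 1 library left out) and Arg1. Fcgr1 had 44.0 and 76.8 CPM with LPS and 98.4 and 64.2 CPM without in KO-labelled cells, against 112 and 78.0 CPM with LPS and 19.3 and 11.6 CPM without in WT cells. Of 16 tested markers of cross-presenting dendritic cells 1 was lower, Ifi205 at -1.61, and 1 was lower of 12 T cell (Cd247), 7 mast cell and basophil (Hdc) and 5 endothelial markers (Eng). Of 14 neutrophil markers 2 were higher, Ltf and Ngp, and of 9 NK cell, 6 B cell, 10 fibroblast and 9 progenitor markers 0 were called.

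Vdr, the vitamin D receptor, had 97.0 and 117 CPM with LPS and 102 and 63.1 CPM without in KO-labelled cells, against 77.5 and 77.6 CPM with LPS and 5.63 and 5.21 CPM without in WT cells, and its interaction was -3.59 (8 of 8). Ccnd2, a cyclin of cell cycle entry, had 686 and 738 CPM with LPS and 556 and 343 CPM without in KO-labelled cells, against 693 and 535 CPM with LPS and 90.3 and 80.8 CPM without in WT cells. It was the 1 gene called of 31 cell cycle genes, at -2.31 (5 of 8). Ptges, the prostaglandin E synthase, had 6.44 and 5.72 CPM with LPS and 14.7 and 9.91 CPM without in KO-labelled cells, against 10.5 and 6.87 CPM with LPS and 0.889 and 0.93 CPM without in WT cells, at -4.39 (8 of 8). Dusp2, a phosphatase of MAP kinases, had 86.7 and 115 CPM with LPS and 128 and 112 CPM without in KO-labelled cells, against 146 and 166 CPM with LPS and 58.3 and 74.9 CPM without in WT cells, at -1.60 (6 of 8).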
